A study of Homo sapiens with 26 samples.

Results

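MDA-MB-468 breast cancer cells released from the gamma-secretase inhibitor DAPT were compared with cells kept in DAPT. The comparison took 6 of the 26 arrays of the series by their treatment labels, with no use of measured values: 3 agonism arrays labelled agD, the washout with control IgG, and 3 agonism arrays labelled DAPT. All 19775 genes with a probe set of their own were tested. MDA-MB-468 is an established line of the basal, triple-negative type, and 1 line was used throughout. The washout plates had 5 µM DAPT for 16 h, 2 h in plain medium, and then 20 µg/ml of an anti-gD antibody as control IgG. The DAPT plates had the same 16 h and 2 h, then 5 µM DAPT, with more DAPT at 22 h. A DMSO group, 3 further arrays shown beside these, had 0.05% DMSO wherever the DAPT plates had DAPT. The protocol speaks of 1 DMSO plate, so these 3 arrays may share a plate, and the p-values against DMSO then measure technical spread on that side. RNA was taken 24 h after the treatment that followed the 2 h wash. Washout and DAPT plates therefore differed in the inhibitor, in the IgG and in the 22 h addition, and these cannot be told apart. Beyond these, 6 arrays served as a comparison with ligand: beads carrying JAG1-Fc, or carrying Fc as the control, 3 arrays each, given after the same DAPT treatment and wash. Another 6 came from the antagonism experiment, in which cells with no earlier inhibitor had 5 µM DAPT or 0.05% DMSO, each with 10 µg/ml control IgG, for 24 h.

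Notch receptors sit at the cell surface and are cut in turn by an ADAM protease, after a ligand such as JAG1 on a neighbouring cell pulls on them, and by gamma-secretase. The second cut frees the intracellular domain, which joins RBPJ and a Mastermind protein on DNA and switches on targets such as the HES and HEY repressors. DAPT blocks gamma-secretase, so uncut receptor can build up under it and be cut once it is removed, although the enzyme has other substrates too. In breast epithelium Notch signalling is known for its part in the choice between luminal and basal fates, and MYC and the receptor gene NOTCH3 are known targets.

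The values are log2 of the deposited array intensities, so that a difference of 1 is a 2-fold change. The median log2 intensity of the 18 agonism arrays lay between 6.84 and 6.88. Between pairs of arrays within a group, the log2 difference had an SD of 0.141 to 0.172 for washout and 0.146 to 0.179 for DAPT. All 10 epithelial and basal markers were above the array median on all 6 arrays, among them EPCAM, KRT5 and EGFR. ESR1 and ERBB2, whose proteins triple-negative tumours lack or have little of, were also above it, and PGR was not. Among other cell types 4 of 9 fibroblast, 3 of 7 leukocyte and 3 of 7 endothelial markers were above the array median on all 6 arrays. The summed linear intensity of the leukocyte markers was 1899 to 2017 on washout arrays and 1347 to 1445 on DAPT arrays. PTPRC, the marker shared by leukocytes, was not above the array median on all 6, and CD14 was the leukocyte marker that rose, by 0.75 ± 0.08 (adjusted p = 5.76e-06). The epithelial and basal markers summed to 79869 to 82698 on washout arrays and 83331 to 87981 on DAPT arrays, also without overlap. The endothelial sums overlapped, at 969 to 1032 on washout arrays and 975 to 1038 on DAPT arrays, although CDH5, an endothelial cadherin, fell by 0.63 (SE 0.13, adjusted p = 0.00499). The fibroblast sums overlapped too, at 1619 to 1734 on washout arrays and 1588 to 1666 on DAPT arrays. The part of these markers in the results was not tested. RNA from more cells of a type and more RNA per cell cannot be told apart in these arrays.

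Washout changed 1932 of 19775 genes (9.77%) relative to continued DAPT. Of these, 821 were higher (4.15%) and 1111 were lower (5.62%). Most changes were small: the median size among them was 0.319 on the log2 scale, and 21 higher genes (0.106%) and 24 lower genes (0.121%) reached 2-fold. The 3 washout arrays and the 3 DAPT arrays did not overlap for 5416 genes (27.4%), nor for 1901 of the genes that passed. The count was 1054 without DAPT array 1 and 1101 without washout array 2. It was also 1141 in a fit of the 6 arrays alone and 1203 without _x_at and _s_at probe sets, types that can detect related transcripts. The median log2 change of all genes was 0.031, and list medians below are to be read beside it. List counts for washout against DAPT are likewise to be read beside the 9.77% of all genes that passed, 4.15% higher and 5.62% lower. Washout against DMSO called more, 30.6% of all genes (17.9% higher, 12.6% lower). Differences from DMSO given for single genes are to be read beside those shares. A gene passed at a limma adjusted p under 0.05, "rose" and "fell" are used of such genes alone, and each ± is a standard error unless it says SD. Replicate numbers are missing from the labels, and nothing says whether a group's arrays stem from different cultures. The p-values rest on the spread within every group of the 18 agonism arrays, which may be technical.

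**Figure D1:**
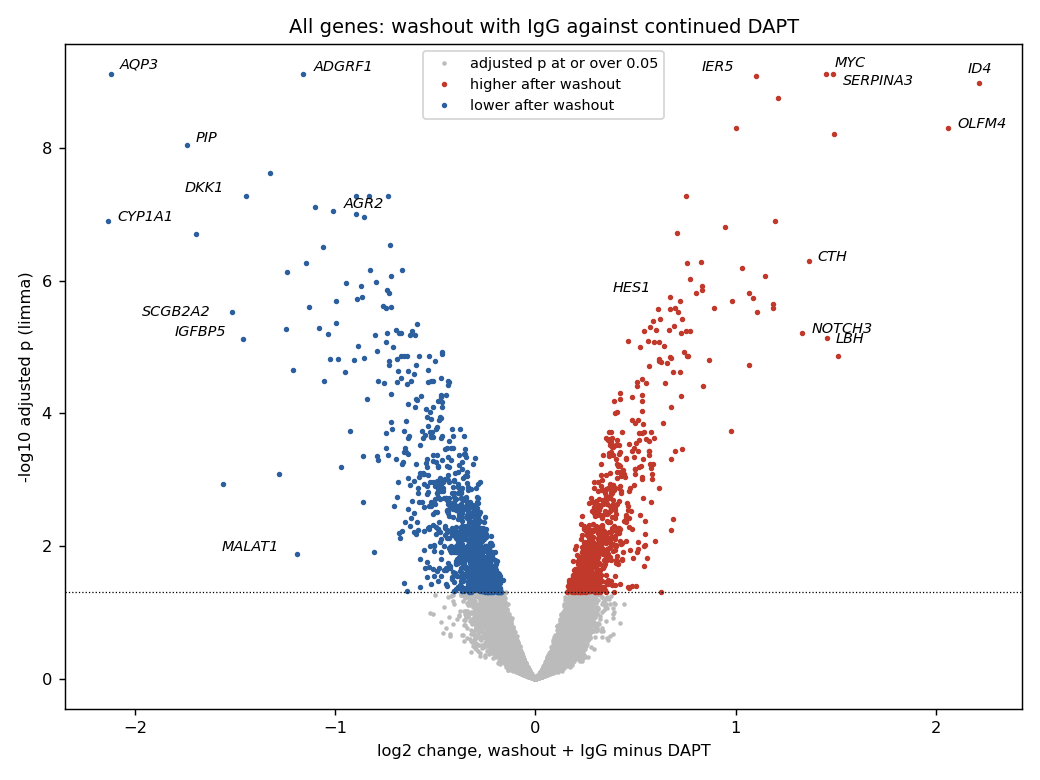
Each of the 19775 genes is a point, with the log2 change of washout with IgG minus DAPT across and -log10 of the limma adjusted p upward; the dotted line is an adjusted p of 0.05. The 821 genes that rose are red and the 1111 that fell are blue, with ID4 and OLFM4 farthest to the right and CYP1A1 and AQP3 farthest to the left.

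Of the 4 Notch receptor genes, 2 rose on washout and none fell. NOTCH3, the receptor the series is named for, had log2 intensities of 11.85, 12.001 and 11.46 on washout arrays, 10.21, 10.59 and 10.51 on DAPT arrays and 11.13, 11.13 and 11.25 on DMSO arrays. Every washout array lay above every DAPT and every DMSO array. The change was 1.33 ± 0.14 (adjusted p = 6.07e-06) against DAPT, or 2.52-fold, and 0.60 ± 0.14 (adjusted p = 0.00328) against DMSO. The other probe set of NOTCH3 gave 0.19 ± 0.12 (adjusted p = 0.436) and did not pass, so the 2 probe sets gave different sizes. NOTCH1 had 7.95, 8.24 and 8.27 after washout, 7.67, 7.61 and 7.86 in DAPT and 7.85, 8.04 and 8.003 in DMSO, and rose by 0.44 ± 0.091 (adjusted p = 0.00414). Its arrays did not overlap between washout and DAPT but did between washout and DMSO. The other NOTCH1 probe set gave 0.16 ± 0.08 (adjusted p = 0.289). NOTCH2 differed by 0.14 ± 0.07 (adjusted p = 0.238) and NOTCH4 by 0.13 ± 0.098 (adjusted p = 0.46), and neither passed. The list's median log2 change was 0.29.

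Among 15 genes for ligands and for the enzymes that modify or ubiquitinate ligands and receptors, 2 rose and 1 fell, with a median log2 change of 0.12. JAG1, a ligand of the Notch receptors, had 9.99, 10.27 and 10.12 on washout arrays, 9.48, 9.47 and 9.55 on DAPT arrays and 9.92, 9.71 and 9.82 on DMSO arrays. The washout arrays were the highest of the 3 groups with no overlap, and JAG1 rose by 0.63 ± 0.073 (adjusted p = 1.67e-05) over DAPT. Its 6 probe sets gave log2 changes of 0.084 to 0.65. LFNG, a fringe glycosyltransferase that lengthens O-fucose on Notch and favours Delta-type ligands, moved the other way, with 7.80, 7.65 and 7.86 after washout, 8.31, 8.29 and 8.59 in DAPT and 7.73, 7.92 and 7.80 in DMSO. It fell by 0.63 (SE 0.11, adjusted p = 0.0012) to the DMSO range, while its other probe set gave -0.08 ± 0.13 (adjusted p = 0.785). DLK2, a Delta-like protein, rose by 0.25 ± 0.078 (adjusted p = 0.0475), a call lost in 9 of 14 alternatives. The 12 others, which include JAG2, DLL1, DLL3, DLL4, MFNG, RFNG, POFUT1 and MIB1, had log2 changes between -0.10 and 0.19 and did not pass.

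Of 24 genes for gamma-secretase subunits, ADAM proteases, the RBPJ complex and regulators, 1 rose and 2 fell, or 12.5% beside 9.77% of all genes, and the median log2 change was 0.024. PSENEN, the gene of the PEN-2 subunit of gamma-secretase, had 11.20, 11.07 and 11.37 on washout arrays and 11.62, 11.51 and 11.67 on DAPT arrays, and fell by 0.39 (SE 0.075, adjusted p = 0.00271). Its DMSO arrays, at 11.50, 11.51 and 11.57, overlapped the DAPT arrays and lay above the washout arrays. APH1B, another subunit, fell by 0.19 (adjusted p = 0.0485), a call lost in 10 of 14 alternatives. SPEN, an RBPJ-bound corepressor, rose by 0.28 ± 0.074 (adjusted p = 0.0219), a call lost in 6 of 14. RBPJ, the DNA-binding partner of cut Notch, differed by 0.0061 ± 0.054 (adjusted p = 0.962), and ADAM10 by 0.021 ± 0.061 (adjusted p = 0.877). The 21 genes that did not pass ranged from -0.30 to 0.23.

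Of 12 measured canonical targets of the pathway, 6 rose on washout, 0 fell, and the median log2 change was 0.28. The 6 were NOTCH3 itself, HES1, NRARP, HEY2, HES4 and HEY1. The promoters of the 3 that hold the core RBPJ motif GTGGGAA in the 250 bases before the annotated start are printed, since this is the site through which cut Notch acts. The motif, or its reverse complement, is in capitals, and its distance is counted from its last base to the first transcribed base on the gene's strand.
HES1: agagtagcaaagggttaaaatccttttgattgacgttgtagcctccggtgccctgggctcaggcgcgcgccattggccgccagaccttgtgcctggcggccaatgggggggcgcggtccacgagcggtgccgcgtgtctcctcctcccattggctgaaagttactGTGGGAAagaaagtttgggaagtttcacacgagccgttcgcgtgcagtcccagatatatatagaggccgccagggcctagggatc
HES4: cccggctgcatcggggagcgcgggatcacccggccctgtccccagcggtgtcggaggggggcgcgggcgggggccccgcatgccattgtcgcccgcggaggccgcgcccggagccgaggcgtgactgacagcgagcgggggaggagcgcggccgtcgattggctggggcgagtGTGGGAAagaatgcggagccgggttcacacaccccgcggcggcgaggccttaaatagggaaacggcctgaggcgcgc
HEY2: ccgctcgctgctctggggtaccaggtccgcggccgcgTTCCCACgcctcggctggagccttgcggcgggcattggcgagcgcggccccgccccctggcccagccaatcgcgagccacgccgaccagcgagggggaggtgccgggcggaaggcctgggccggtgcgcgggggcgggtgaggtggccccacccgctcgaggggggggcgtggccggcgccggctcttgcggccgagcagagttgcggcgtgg
The HES1 sequence is chr3:194135898-194136147 on the plus strand, with the motif 79 bases before the start. The HES4 sequence is chr1:1000098-1000347 on the minus strand, with the motif 71 bases before the start. The HEY2 sequence is chr6:125749382-125749631 on the plus strand, with the motif on the opposite strand 207 bases before the start. The sequences and starts are from RefSeq (GRCh38.p14). GTGGGAA on either strand was present in the promoters of 5 of the 10 target genes that have one there, HES5 and HEYL being the other two, and in 5.43% of 35116 promoters of this length. A match of these letters is a description of the sequence, and binding was not measured.

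HES1, a basic helix-loop-helix repressor and the most widely used Notch readout, had 10.66, 10.77 and 10.73 on washout arrays, 10.03, 10.01 and 10.10 on DAPT arrays and 10.38, 10.54 and 10.38 on DMSO arrays. The 3 groups did not overlap, and washout was the highest. HES1 rose by 0.67 ± 0.064 (adjusted p = 1.75e-06) over DAPT and by 0.29 ± 0.064 (adjusted p = 0.0022) over DMSO. A second probe set gave 0.71 ± 0.064 (adjusted p = 1.52e-06), and another, -0.12 ± 0.087 (adjusted p = 0.505), did not pass. NRARP, a small ankyrin protein that binds cut Notch and limits its signal, had 8.35, 8.34 and 8.28 after washout, 7.77, 8.02 and 7.97 in DAPT and 8.10, 8.17 and 8.05 in DMSO. Washout was highest without overlap, and NRARP rose by 0.41 ± 0.068 (adjusted p = 0.000773). HEY1 had 7.83, 7.83 and 7.93 after washout, 7.48, 7.55 and 7.56 in DAPT and 7.86, 7.83 and 7.68 in DMSO. It rose by 0.34 ± 0.063 (adjusted p = 0.00201), and its washout and DMSO arrays overlapped. HES4 rose by 0.35 ± 0.079 (adjusted p = 0.00864), a call lost without DAPT array 1 (adjusted p = 0.0557). HEY2 rose by 0.37 ± 0.085 (adjusted p = 0.00873) and lost its call without washout array 1 (adjusted p = 0.053) or DAPT array 1 (adjusted p = 0.0557). The 6 targets that did not pass, HES2, HES5, HES6, HES7, HEYL and DTX1, ranged from -0.038 to 0.23. Without _x_at and _s_at probe sets, 2 targets passed in place of 6.

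**Figure D2:**
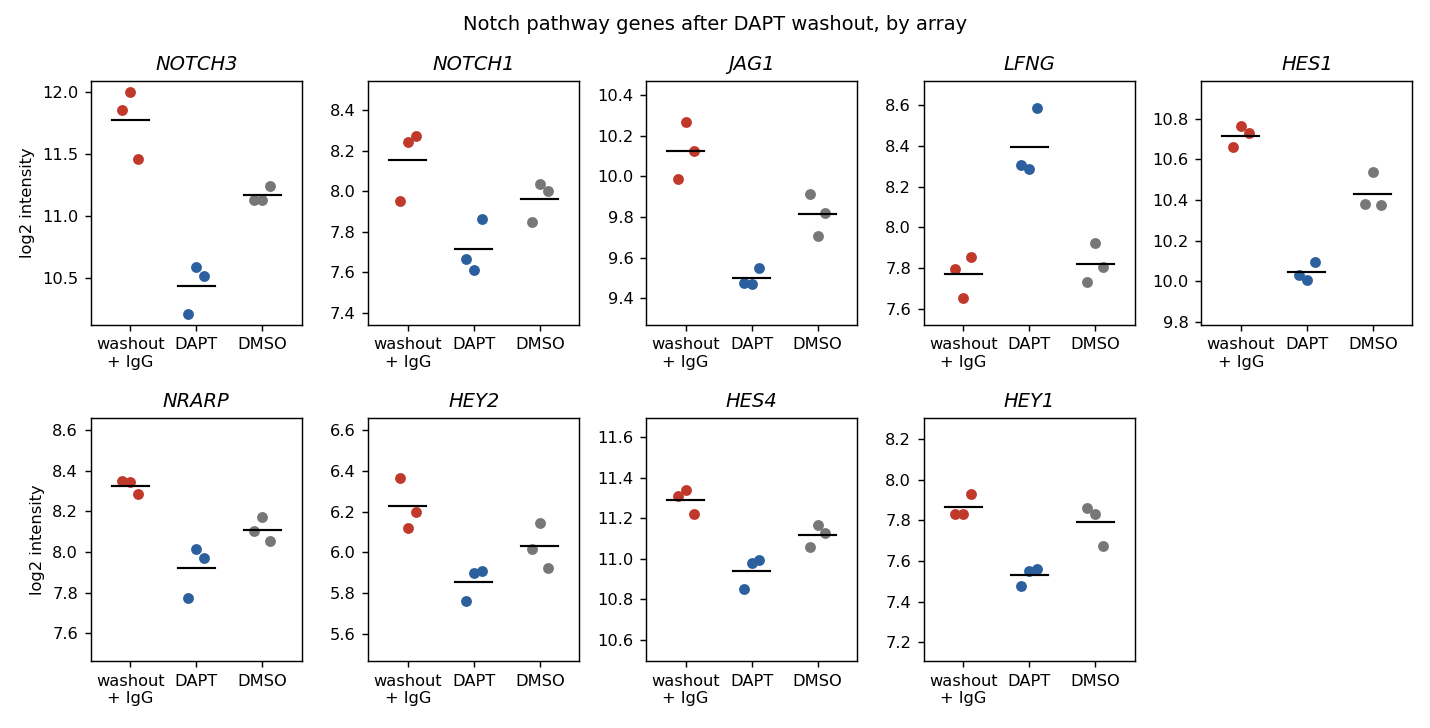
Log2 intensity of 9 Notch pathway genes on each array of the washout with IgG, DAPT and DMSO groups, 3 arrays each; black bars are group means and each panel has its own axis. NOTCH3, JAG1 and HES1 are highest after washout, with DMSO between washout and DAPT, and LFNG is highest in DAPT.

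MYC, a transcription factor that drives growth and a direct Notch target in breast and T cell cancers, was among the most changed genes. It had 10.74, 11.01 and 10.89 on washout arrays, 9.46, 9.28 and 9.54 on DAPT arrays and 10.68, 10.64 and 10.59 on DMSO arrays. Washout arrays lay 2.74-fold above DAPT arrays in the mean and a little above the DMSO arrays, without overlap with either. The change was 1.45 ± 0.072 (adjusted p = 7.59e-10) against DAPT and 0.24 ± 0.072 (adjusted p = 0.0159) against DMSO. In the 11 measured genes of the MYC network, 4 rose and 1 fell. MYCN, a MYC relative, rose by 0.73 ± 0.11 (adjusted p = 0.000347), and MNT, a MAX partner that opposes MYC, rose by 0.33 ± 0.074 (adjusted p = 0.0085). Without _x_at and _s_at probe sets MYCN lost its call (adjusted p = 0.278), and MNT lost its own without DAPT array 1 (adjusted p = 0.0628).

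Genes of ribosome and nucleotide production rose by small amounts where they passed, with 1 exception. Of 20 ribosome biogenesis genes, 7 rose and 0 fell, with a median log2 change of 0.17. NOLC1, a nucleolar chaperone of small ribonucleoproteins, had 11.13, 11.21 and 11.17 on washout arrays and 10.82, 10.87 and 10.97 on DAPT arrays, a rise of 0.28 ± 0.06 (adjusted p = 0.00563). WDR43, a factor of small-subunit assembly, had 9.41, 9.61 and 9.58 after washout, 9.26, 9.20 and 9.19 in DAPT and 9.71, 9.67 and 9.67 in DMSO, so that washout lay between the other groups. Its rise was 0.31 ± 0.072 (adjusted p = 0.0093). Without washout array 2 the count was 3 and without DAPT array 1 it was 4. Of 19 polyamine and nucleotide synthesis genes, 6 rose and 1 fell, and the median log2 change was 0.10. IMPDH2, the rate-limiting enzyme of guanine nucleotide synthesis, rose by 0.37 ± 0.066 (adjusted p = 0.00118). PRPS1, which makes the ribose phosphate donor for nucleotides, fell by 0.29 (SE 0.057, adjusted p = 0.0026).

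Among cell cycle genes CCND1, the gene of cyclin D1, had 9.24, 9.56 and 9.33 on washout arrays, 8.62, 8.55 and 8.74 on DAPT arrays and 8.96, 9.002 and 9.01 on DMSO arrays. It rose by 0.74 ± 0.084 (adjusted p = 1.16e-05), with no overlap among the 3 groups. CDK6, a kinase partner of cyclin D1, rose by 0.50 ± 0.082 (adjusted p = 0.000684) to the DMSO level, and E2F2, an activator of S-phase genes, rose by 0.45 ± 0.072 (adjusted p = 0.000468). CDKN1A, which encodes the cyclin-dependent kinase inhibitor p21, had 9.38, 9.46 and 9.46 after washout, 9.81, 9.65 and 9.76 in DAPT and 8.79, 9.07 and 8.96 in DMSO. It fell by 0.31 (SE 0.07, adjusted p = 0.00888), which left it above DMSO by 0.49 ± 0.07 (adjusted p = 5.81e-05), and its fall was lost without DAPT array 1 (adjusted p = 0.0557). In all, 4 of 20 G1 cyclin, kinase and inhibitor genes rose and 2 fell. Of 28 DNA replication genes 5 rose and 0 fell, CDC45, a helicase cofactor, by 0.37 ± 0.053 (adjusted p = 0.000193). Of 30 mitotic genes 7 rose and 0 fell, CENPA, the centromeric histone, by 0.32 ± 0.062 (adjusted p = 0.0026). The mitotic count was 1 without washout array 2, 2 without DAPT array 1 and 3 without DAPT array 2, and the replication count was 3 without any one of these. Against DMSO, washout arrays were lower for 11 of the 30 mitotic genes and higher for 1, beside 12.6% and 17.9% of all genes. Of the 28 replication genes 7 were lower than in DMSO and 11 higher.

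The largest rise of all was that of ID4, a helix-loop-helix protein that cannot bind DNA and so holds back its partners. ID4 had 11.46, 11.87 and 11.61 on washout arrays, 9.48, 9.19 and 9.63 on DAPT arrays and 10.28, 10.47 and 10.29 on DMSO arrays. Washout stood above both, by 4.65-fold over DAPT, with a log2 change of 2.22 ± 0.12 (adjusted p = 1.05e-09) against DAPT and 1.30 ± 0.12 (adjusted p = 1.81e-06) against DMSO. Its relatives ID2 and ID3 rose by 0.41 ± 0.066 (adjusted p = 0.000577) and 0.42 ± 0.055 (adjusted p = 4.96e-05), and ID1, named after its values were seen, fell by 0.25 (SE 0.076, adjusted p = 0.0477). OLFM4, a secreted glycoprotein that marks intestinal stem cells and responds to Notch there, had 7.16, 7.42 and 7.44 after washout, 5.42, 5.02 and 5.40 in DAPT and 7.56, 7.43 and 7.25 in DMSO. Its rise of 2.06 ± 0.12 (adjusted p = 4.97e-09) brought it to the DMSO range, from which it differed by -0.072 ± 0.12 (adjusted p = 0.711).

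Other large rises fell into those that ended near DMSO and those that ended above it. NRP1, a co-receptor for semaphorins and vascular endothelial growth factor, had 8.33, 8.49 and 8.41 after washout, 6.94, 6.80 and 7.003 in DAPT and 8.13, 8.14 and 8.16 in DMSO. It rose by 1.49 ± 0.09 (adjusted p = 6.07e-09) and exceeded DMSO by 0.26 ± 0.09 (adjusted p = 0.0333). Its other probe sets gave 0.028 to 0.32, of which 0.32 ± 0.082 passed (adjusted p = 0.0266). IL22RA2, a soluble decoy receptor for interleukin 22, had 8.22, 8.57 and 8.56 after washout, 7.33, 7.24 and 7.18 in DAPT and 8.36, 8.25 and 8.23 in DMSO, and the washout and DMSO arrays overlapped. SERPINA3, the protease inhibitor alpha-1-antichymotrypsin, had 11.15, 10.98 and 10.97 after washout, 9.66, 9.61 and 9.37 in DAPT and 10.65, 10.67 and 10.75 in DMSO, a rise of 1.49 ± 0.073 (adjusted p = 7.59e-10) over DAPT. IER5, an immediate early gene, rose by 1.10 ± 0.056 (adjusted p = 8.08e-10), and GAS1, a membrane protein that binds hedgehog, by 1.15 ± 0.10 (adjusted p = 8.32e-07). These 3 were above DMSO as well, by 0.34, 0.29 and 0.43 in the order named. The other GAS1 probe sets gave 0.40 and 0.15 over DAPT, and neither passed. CASP4LP, a caspase pseudogene, rose by 1.51 ± 0.17 (adjusted p = 1.37e-05) and did not differ from DMSO past the threshold (0.15 ± 0.17, adjusted p = 0.578). Its other probe set gave 0.18 ± 0.074 over DAPT (adjusted p = 0.193).

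LBH, a transcription cofactor first described in limb bud and heart, behaved otherwise. It had 9.59, 10.09 and 9.69 on washout arrays, 8.39, 8.06 and 8.55 on DAPT arrays and 8.30, 8.53 and 8.14 on DMSO arrays. The DAPT and DMSO arrays overlapped, and the washout arrays stood apart by 1.46 ± 0.16 (adjusted p = 7.16e-06) over DAPT and 1.47 ± 0.16 (adjusted p = 7.86e-06) over DMSO. CCDC71L, a gene of little known function, had 10.91, 10.87 and 10.88 after washout, 9.70, 9.58 and 9.75 in DAPT and 9.81, 9.86 and 9.76 in DMSO, a rise of 1.21 ± 0.066 (adjusted p = 1.75e-09) over DAPT. PDE8B, a phosphodiesterase that breaks down cyclic AMP, rose by 1.03 ± 0.089 (adjusted p = 6.3e-07), and ERRFI1, which restrains the EGF receptor, by 1.003 ± 0.059 (adjusted p = 4.97e-09). Over DMSO the 3 were higher by 1.08, 0.74 and 0.91 in the order named.

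Several of the larger falls were in the list of luminal secretory products. It holds proteins that milk-producing and apocrine cells release, and also the surface protein PSCA and the cytochrome CYP4Z1. Of 22 measured, 7 fell and 1 rose, with a median log2 change of -0.21. PIP, prolactin-induced protein, had 9.05, 8.96 and 9.10 on washout arrays, 10.84, 10.71 and 10.79 on DAPT arrays and 9.08, 9.14 and 9.33 on DMSO arrays. Washout lowered it 3.35-fold relative to DAPT (-1.74 ± 0.11, adjusted p = 9.03e-09), into the DMSO range. AGR2, a protein disulfide isomerase of secretory cells, had 11.42, 11.23 and 11.34 after washout, 12.33, 12.39 and 12.29 in DAPT and 11.45, 11.29 and 11.49 in DMSO, and also came to overlap DMSO. SCGB2A2, mammaglobin A, had 8.57, 8.57 and 8.29 after washout, 9.99, 10.30 and 9.69 in DAPT and 7.93, 7.96 and 8.24 in DMSO. Its change of -1.51 ± 0.15 (adjusted p = 2.99e-06) left it above DMSO by 0.43 ± 0.15 (adjusted p = 0.0362). PSCA, a small surface protein, fell by 0.86 (SE 0.081, adjusted p = 1.75e-06). The remaining fallers, named after their values were seen, were CEACAM6, LCN2 and MUCL1. CYP4Z1, a mammary cytochrome, was the 1 that rose, by 0.18 ± 0.055 (adjusted p = 0.0477), and it passed in none of the 6 fits with 1 array left out.

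Among keratins 3 luminal ones fell, whereas of the basal ones KRT5 and KRT14 rose and KRT15, named after its values were seen, fell. KRT8, a luminal keratin, had 13.17, 13.02 and 13.08 on washout arrays and 13.45, 13.44 and 13.51 on DAPT arrays, and fell by 0.38 (SE 0.073, adjusted p = 0.00253). KRT18, its partner, and KRT7 fell by 0.23 and 0.32, which made 3 of 6 luminal keratins. KRT7 gave 0.0196 from a probe set that does not end in _x_at or _s_at, and KRT18 lost its call without washout array 1 (adjusted p = 0.0593) or DAPT array 3 (adjusted p = 0.0593). KRT5, a basal keratin, had 12.48, 12.53 and 12.39 after washout, 11.87, 12.10 and 12.16 in DAPT and 12.56, 12.68 and 12.42 in DMSO, a rise of 0.43 ± 0.077 (adjusted p = 0.00146) back to the DMSO range. KRT14, its usual partner, had 8.49, 8.50 and 8.67 after washout, 8.27, 8.11 and 8.17 in DAPT and 9.01, 9.02 and 8.96 in DMSO, so that its rise of 0.37 ± 0.069 (adjusted p = 0.00188) left it below DMSO. Of 18 basal and progenitor genes 8 rose and 4 fell. ALDH1A1 rose by 0.68 ± 0.078 (adjusted p = 1.46e-05) while ALDH1A3, a related retinal dehydrogenase, fell by 1.10 (SE 0.08, adjusted p = 7.76e-08). The other ALDH1A3 probe set gave 0.16 ± 0.093 (adjusted p = 0.361). FOXA1, a pioneer factor of luminal cells, fell by 0.33 (adjusted p = 0.0134) and was the 1 of 16 luminal transcription factors that passed. It lost that call without washout array 1 (adjusted p = 0.0818) or DAPT array 1 (adjusted p = 0.0654).

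**Figure D3:**
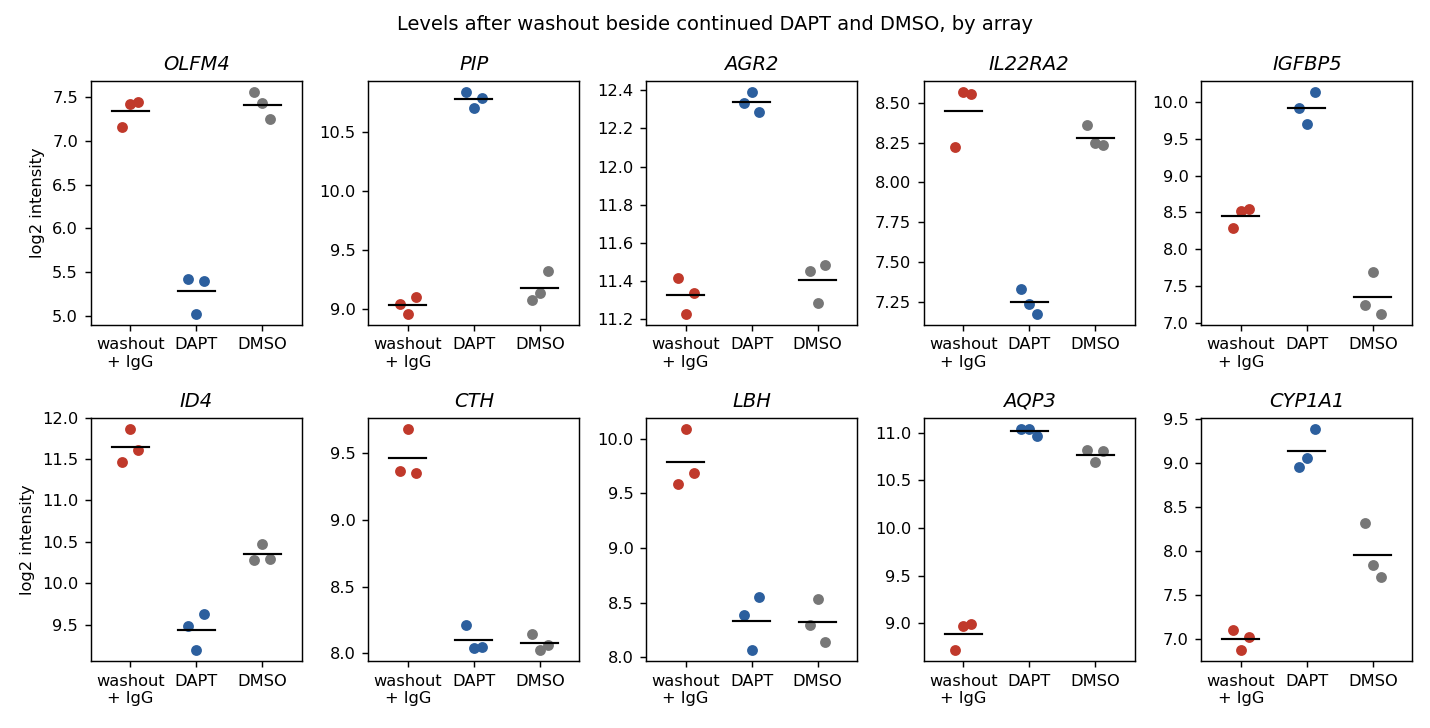
Log2 intensity of 10 genes on each array of the washout with IgG, DAPT and DMSO groups, 3 arrays each; black bars are group means and each panel has its own axis. OLFM4, PIP and AGR2 overlap DMSO after washout, IGFBP5 lies between DAPT and DMSO, and ID4, CTH, LBH, AQP3 and CYP1A1 lie beyond both.

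Growth factor and Wnt genes supplied several of the remaining large falls. IGFBP5, a secreted binder of insulin-like growth factors, had 8.29, 8.53 and 8.55 on washout arrays, 9.92, 9.70 and 10.13 on DAPT arrays and 7.25, 7.70 and 7.13 on DMSO arrays. It fell by 1.46 (SE 0.16, adjusted p = 7.55e-06) and stayed 1.10 above DMSO, without overlap of any 2 groups. Its other probe sets gave smaller changes, from -0.096 to -0.56. Of these, -0.56 (adjusted p = 0.00541) and -0.52 (adjusted p = 0.0107) passed. DKK1, a secreted Wnt inhibitor, had 9.39, 9.54 and 9.52 after washout, 10.90, 11.02 and 10.87 in DAPT and 10.25, 9.91 and 10.23 in DMSO, and ended below both. WNT5A, a ligand of the non-canonical Wnt route, had 6.31, 6.52 and 6.89 after washout and 7.89, 7.64 and 7.91 in DAPT, a change of -1.25 ± 0.13 (adjusted p = 5.32e-06). AXIN2, a feedback gene of canonical Wnt signalling, rose by 0.51 ± 0.064 (adjusted p = 3.91e-05) to the DMSO level and was the 1 of 23 Wnt genes that rose, against 2 that fell. The other AXIN2 probe sets gave 0.25, 0.25 and 0.078, and none of them passed. TMPRSS11E, a membrane serine protease, SYTL2, an effector of secretory Rab proteins, and CST6, the protease inhibitor cystatin E/M, changed by -1.70, -1.33 and -1.24. ADGRF1, an adhesion G protein-coupled receptor, had 10.41, 10.43 and 10.43 after washout, 11.58, 11.57 and 11.60 in DAPT and 10.75, 10.71 and 10.76 in DMSO. Its 3 groups did not overlap, and each was tight. OXTR, the oxytocin receptor, changed by -1.14 ± 0.097 (adjusted p = 5.39e-07) and LRRC31, a leucine-rich repeat protein, by -1.21 ± 0.14 (adjusted p = 2.19e-05). PDZK1, a scaffold of membrane carriers, changed by -1.08 ± 0.11 (adjusted p = 5.15e-06) to the DMSO level, and SLC1A1, a glutamate carrier, by -1.06 ± 0.086 (adjusted p = 3.07e-07) to below it. The nuclear long RNA MALAT1 and 2 other transcripts of little known function, LINC00342 and ANKRD36B, changed by -1.19, -1.56 and -1.28, and MALAT1 lost its call in 4 of 15 alternatives.

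AQP3, a channel for water and glycerol, had 8.72, 8.97 and 8.99 on washout arrays, 11.03, 11.04 and 10.96 on DAPT arrays and 10.82, 10.69 and 10.81 on DMSO arrays. Washout lowered it 4.35-fold relative to DAPT (-2.12 ± 0.10, adjusted p = 7.59e-10) and also relative to DMSO (-1.88 ± 0.10, adjusted p = 8.88e-09), while DAPT and DMSO differed by 0.24 ± 0.10 (adjusted p = 0.119). Its 3 probe sets gave log2 changes of -2.12, -0.99 and -0.68. CYP1A1, a cytochrome that oxidises aromatic compounds and the classic target of the aryl hydrocarbon receptor, had 7.11, 6.87 and 7.02 after washout, 8.96, 9.05 and 9.39 in DAPT and 8.32, 7.84 and 7.70 in DMSO. The groups did not overlap, with washout lowest, and CYP1A1 was 4.39-fold lower than in DAPT (-2.13 ± 0.16, adjusted p = 1.25e-07). Of the 10 measured genes of that receptor's battery, 5 fell and 1 rose, with a median log2 change of -0.17. CYP1B1 had 11.86, 12.02 and 11.91 after washout, 12.59, 12.72 and 12.65 in DAPT and 12.58, 12.44 and 12.45 in DMSO, a change of -0.72 ± 0.07 (adjusted p = 2.44e-06). ALDH3A1, an aldehyde dehydrogenase, changed by -1.13 ± 0.11 (adjusted p = 2.47e-06) to the DMSO level, and NQO1, a quinone reductase, by -0.36 ± 0.053 (adjusted p = 0.000218). TIPARP, a feedback enzyme, fell by 0.20, and AHR, the receptor itself, rose by 0.28, calls lost in 7 of 15 and in 8 of 15 alternatives. AHRR, ARNT, CYP1A2 and UGT1A6 ranged from -0.15 to 0.092 and did not pass. Without _x_at and _s_at probe sets 2 of the battery fell.

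ATF4 is a transcription factor whose targets cells turn on when amino acids run short or proteins misfold. Of 28 such genes measured, 24 rose, 0 fell, and the median log2 change was 0.62 beside 0.031 for all genes. The list was chosen with earlier results of these data known, and its members are described in full for what they showed. Promoters of 3 that rose and hold the ATF4 response motif TGATGNAA are shown, again with the motif or its reverse complement in capitals and taken from RefSeq (GRCh38.p14).
CHAC1: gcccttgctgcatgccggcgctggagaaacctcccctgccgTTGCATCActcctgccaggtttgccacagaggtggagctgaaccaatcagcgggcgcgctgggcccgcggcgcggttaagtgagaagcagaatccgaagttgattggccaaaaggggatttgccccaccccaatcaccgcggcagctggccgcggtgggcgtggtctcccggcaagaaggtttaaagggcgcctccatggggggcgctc
ATF3: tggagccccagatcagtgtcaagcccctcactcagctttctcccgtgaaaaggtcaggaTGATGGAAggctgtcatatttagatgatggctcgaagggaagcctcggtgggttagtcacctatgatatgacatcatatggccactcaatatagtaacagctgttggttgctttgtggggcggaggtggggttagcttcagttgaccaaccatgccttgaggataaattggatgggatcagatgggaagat
ASNS: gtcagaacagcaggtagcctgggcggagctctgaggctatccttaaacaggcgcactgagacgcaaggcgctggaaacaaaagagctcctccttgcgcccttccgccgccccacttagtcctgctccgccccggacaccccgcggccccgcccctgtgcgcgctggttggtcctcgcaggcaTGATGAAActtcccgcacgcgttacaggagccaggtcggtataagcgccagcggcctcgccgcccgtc
The CHAC1 sequence is chr15:40953221-40953470 on the plus strand, with the motif on the opposite strand 202 bases before the start. The ATF3 sequence is chr1:212565157-212565406 on the plus strand, one of 2 starts given for it, with the motif 184 bases before that start. The ASNS sequence is chr7:97872409-97872658 on the minus strand, also one of 2 starts, with the motif 61 bases before it. TGATGNAA on either strand was present in the promoters of 4 of the 23 genes of the list that have one there, SLC1A5 being the other, and in 3.14% of the 35116 promoters. Those 23 genes have 38 promoters there, so the count of genes and the share of promoters are on unlike units.

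The largest change on the list was that of CTH, a gene of sulphur amino acid metabolism. CTH, cystathionine gamma-lyase, which makes cysteine, had 9.36, 9.68 and 9.35 on washout arrays, 8.21, 8.04 and 8.04 on DAPT arrays and 8.15, 8.02 and 8.06 on DMSO arrays. DAPT and DMSO overlapped, and washout was 2.58-fold above DAPT (1.37 ± 0.11, adjusted p = 5e-07). SLC7A11, the cystine carrier, had 8.82, 9.07 and 8.997 after washout, 7.91, 7.81 and 7.83 in DAPT and 8.35, 8.20 and 8.16 in DMSO, a rise of 1.11 ± 0.11 (adjusted p = 2.99e-06) that ended above DMSO. CHAC1, which degrades glutathione, had 9.67, 9.73 and 9.44 after washout, 8.57, 8.59 and 8.44 in DAPT and 8.57, 8.62 and 8.70 in DMSO, a rise of 1.09 ± 0.10 (adjusted p = 1.8e-06). CBS, the enzyme before CTH in the same route, rose by 0.73 ± 0.094 (adjusted p = 5.51e-05).

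Serine, glycine and folate enzymes of the list rose as well. PSAT1, an aminotransferase of serine synthesis, had 12.91, 13.13 and 12.95 after washout, 12.39, 12.46 and 12.37 in DAPT and 12.80, 12.69 and 12.71 in DMSO, and rose by 0.59 ± 0.065 (adjusted p = 8.43e-06). SHMT2, which splits serine in mitochondria, rose by 0.60 ± 0.063, PHGDH, the first enzyme of serine synthesis, by 0.44 ± 0.073, and MTHFD2, a mitochondrial folate enzyme, by 0.26 ± 0.063. ALDH1L2, another mitochondrial folate enzyme, had 8.20, 8.77 and 8.51 after washout, 7.60, 7.33 and 7.35 in DAPT and 7.73, 7.66 and 7.59 in DMSO, a rise of 1.07 ± 0.13 (adjusted p = 1.82e-05). Its other probe sets gave 0.40 and 0.38, and neither passed. PSPH, the last enzyme of serine synthesis, differed by 0.022 ± 0.063 (adjusted p = 0.877) and did not pass. Its other probe sets gave 0.31 ± 0.067 (adjusted p = 0.00861), which passed, and -0.13 ± 0.12 (adjusted p = 0.612). ASNS, asparagine synthetase, had 12.13, 12.23 and 12.13 after washout, 11.59, 11.55 and 11.49 in DAPT and 11.97, 11.78 and 11.88 in DMSO, with no overlap among groups, and rose by 0.62 ± 0.063 (adjusted p = 3.7e-06). Its other probe set gave 0.089 ± 0.087 (adjusted p = 0.631). Among amino acid carriers SLC7A1 rose by 0.77 ± 0.082, SLC3A2 by 0.71 ± 0.071, SLC7A5 by 0.68 ± 0.091 and SLC38A2 by 0.53 ± 0.07.

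Regulators on the list also rose, ATF4 itself excepted. ATF3, a stress-induced transcription factor, had 9.90, 10.000 and 9.68 on washout arrays, 8.66, 8.69 and 8.68 on DAPT arrays and 8.62, 8.59 and 8.82 on DMSO arrays, a rise of 1.19 ± 0.12 (adjusted p = 2.56e-06). DAPT and DMSO overlapped, and washout stood above both. The other ATF3 probe sets gave 0.62 ± 0.12 (adjusted p = 0.00424) and 0.21 ± 0.083 (adjusted p = 0.169). DDIT3, the gene of the stress factor CHOP, rose by 0.58 ± 0.095 (adjusted p = 0.000662), and TRIB3, a pseudokinase that damps ATF4, by 0.70 ± 0.068 (adjusted p = 2.56e-06). SESN2 and DDIT4, both inhibitors of the growth kinase mTORC1, rose by 0.87 ± 0.10 and 0.73 ± 0.074, and STC2, a secreted glycoprotein, by 1.19 ± 0.11 (adjusted p = 2.24e-06). ATF4 had 13.39, 13.50 and 13.43 after washout and 13.30, 13.31 and 13.34 in DAPT, a difference of 0.12 ± 0.049 (adjusted p = 0.127) that did not pass, and NUPR1 and ATF5 did not pass either. Against DMSO the washout arrays were higher for 26 of the 28 and lower for 0, in a comparison that called 30.6% of all genes (17.9% higher, 12.6% lower). DAPT against DMSO, which called 20.7% of all genes (12.4% higher, 8.31% lower), called 3 of the 28 higher and 3 lower. These comparisons share arrays with washout against DAPT, so they are given as values only. Genes of the unfolded protein response, an endoplasmic reticulum stress route that also uses ATF4, were divided: 2 of 20 rose, 2 fell and the median was -0.021.

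**Figure D4:**
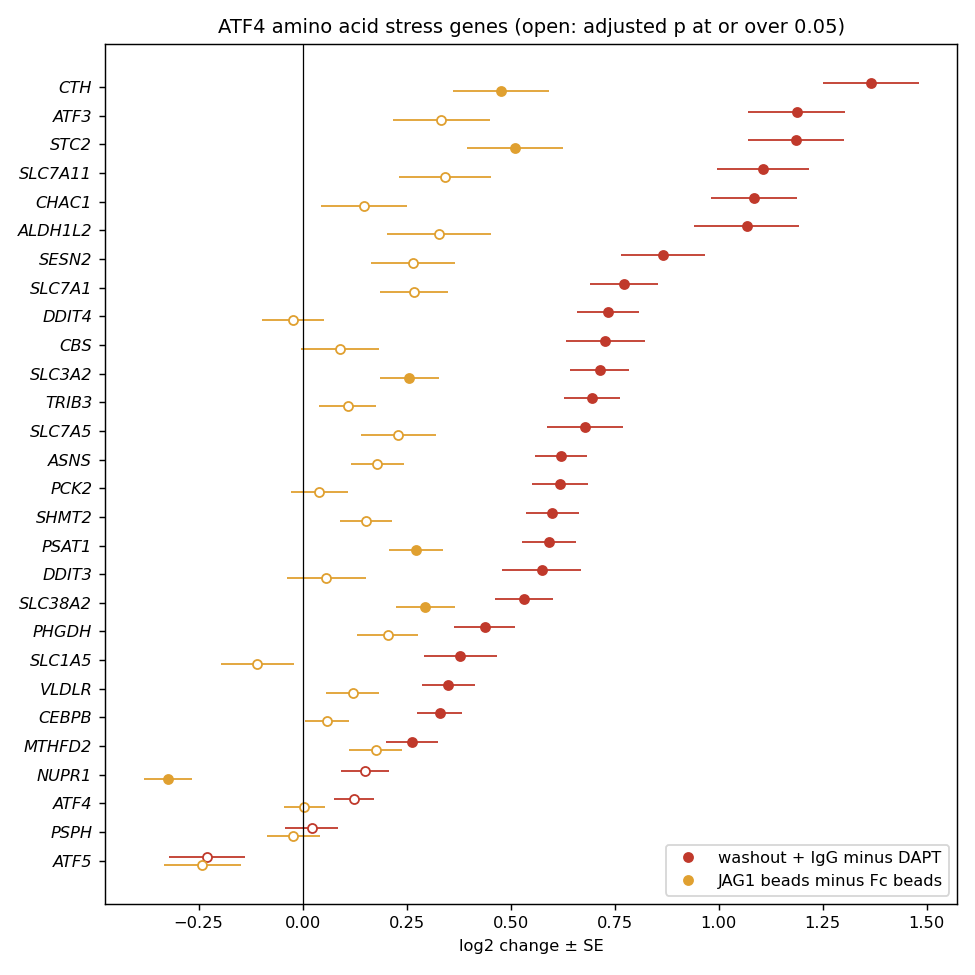
Log2 change and SE of the 28 measured ATF4 genes, for washout with IgG minus DAPT in red and JAG1 beads minus Fc beads in yellow; filled points have an adjusted p under 0.05. For washout 24 points are filled and to the right of 0, from MTHFD2 to CTH, and for JAG1 beads 5 are filled to the right and 1, NUPR1, to the left.

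Signalling feedback and immediate early genes had more risers than fallers. In the EGFR family list 4 of 12 rose and 2 fell: HBEGF, an EGF receptor ligand, rose by 0.48 ± 0.094 (adjusted p = 0.00301), and BTC, betacellulin, another ligand, fell by 0.69 (SE 0.12, adjusted p = 0.00106). Of 17 MAP kinase feedback genes 6 rose and 2 fell. DUSP5, a nuclear phosphatase of ERK, rose by 0.53 ± 0.069 (adjusted p = 5.24e-05), whereas DUSP2, a related phosphatase, had 7.96, 8.19 and 8.20 after washout, 8.91, 9.06 and 9.005 in DAPT and 8.38, 8.23 and 8.29 in DMSO and changed by -0.87 ± 0.079 (adjusted p = 1.19e-06). Of 23 AP-1, EGR and related early genes 8 rose and 2 fell, JUND, a subunit of AP-1, by 0.39 ± 0.072 (adjusted p = 0.00201). Among 17 YAP targets and caveolae genes 3 rose and 4 fell. CCN1, a matricellular protein, rose by 0.83 ± 0.077 (adjusted p = 1.36e-06), and CAVIN1 and CAV1, which build caveolae, changed by -0.69 ± 0.08 (adjusted p = 1.48e-05) and -0.64 ± 0.08 (adjusted p = 3.62e-05).

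Acute-phase, interferon and inflammatory genes were mixed. LBP, the lipopolysaccharide-binding protein, had 7.81, 7.89 and 7.59 after washout, 6.80, 6.73 and 6.56 in DAPT and 7.003, 7.36 and 7.15 in DMSO, a rise of 1.07 ± 0.10 (adjusted p = 1.54e-06). C3, the central complement protein, rose by 0.67 ± 0.07 (adjusted p = 5.41e-06), and FGB, the fibrinogen beta chain, changed by -0.79 ± 0.13 (adjusted p = 0.000441). The other FGB probe set gave -0.033 ± 0.11 (adjusted p = 0.91). In all, 3 of 12 acute-phase genes rose and 2 fell. IRF1 and IFITM1, both induced by interferon, rose by 0.65 ± 0.081 (adjusted p = 3.49e-05) and 0.56 ± 0.062 (adjusted p = 7.95e-06), whereas OAS1, an antiviral RNA sensor, fell by 0.83 (SE 0.058, adjusted p = 5.19e-08). These were the 3 of 23 interferon genes that passed. NFKBIZ, a nuclear regulator of NF-kB, changed by -0.93 ± 0.13 (adjusted p = 0.000181), and RELB, an NF-kB subunit, rose by 0.42 ± 0.09 (adjusted p = 0.00598), among 4 of 23 genes of that list that rose and 1 that fell.

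Metabolic and protease lists were likewise divided. Of 18 cholesterol and fatty acid synthesis genes 5 rose and 1 fell, SQLE, squalene epoxidase, by 0.30 ± 0.057 (adjusted p = 0.00207). Of 25 glycolysis and hypoxia genes 2 rose and 5 fell, NDRG1 by -0.59 ± 0.12 (adjusted p = 0.00436). Of 17 NRF2 targets 1 rose and 5 fell, the riser being SLC7A11, which is also on the ATF4 list, and AKR1B10, an aldo-keto reductase, changed by -0.28 ± 0.061 (adjusted p = 0.00613). S100A3, a calcium-binding protein, rose by 0.76 ± 0.087 (adjusted p = 1.35e-05), and S100A13 changed by -0.47 ± 0.062 (adjusted p = 6.77e-05), in a list of 15 with 1 higher and 4 lower. MMP7, a matrix protease, rose by 0.36 ± 0.085 (adjusted p = 0.0112), a call lost without DAPT array 3 (adjusted p = 0.058). TIMP1, a protease inhibitor, changed by -0.47 ± 0.058 (adjusted p = 2.87e-05), and of 16 genes of that kind 1 rose and 3 fell. Prostaglandin genes had 3 lower of 13, with the export carrier ABCC4 among them (-0.50 ± 0.094, adjusted p = 0.00192). FN1, fibronectin, rose by 0.60 ± 0.14 (adjusted p = 0.00832) and was with VIM 1 of the 2 risers among 14 cadherin and mesenchymal genes, and VIM lost its call in 9 of 14 alternatives. Without _x_at and _s_at probe sets FN1 lost its call (adjusted p = 0.942).

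The remaining lists are given by their counts, to be read beside the 9.77% of all genes that passed. Of 16 neuropilin, plexin, semaphorin and VEGF genes 4 rose and 0 fell. Beside NRP1 these include the ligand SEMA3E (0.43 ± 0.11, adjusted p = 0.0164), VEGFA (0.31 ± 0.097, adjusted p = 0.0493) and the receptor PLXND1 (0.31 ± 0.073, adjusted p = 0.00971), of which VEGFA lost its call in 6 of 14 alternatives. Of 22 genes of the ID, SMAD and BMP group 3 rose and 2 fell, BMP2, a secreted ligand, by 0.64 (SE 0.12, adjusted p = 0.0028). Of 13 insulin-like growth factor genes 1 rose and 2 fell, the riser being IRS2, an adaptor of the insulin receptor (0.45 ± 0.093, adjusted p = 0.00392). Of 14 tight junction genes 2 rose and 1 fell, with CLDN1 (0.36 ± 0.09, adjusted p = 0.0151) and OCLN (0.29 ± 0.073, adjusted p = 0.016) higher and CLDN12 (-0.41 ± 0.081, adjusted p = 0.00278) lower. Of 14 serpins 1 rose and 2 fell, the fallers being SERPINB5 (-0.53 ± 0.076, adjusted p = 0.000191) and SERPINB7 (-0.45 ± 0.12, adjusted p = 0.0231). The other SERPINB5 probe set gave -0.064 ± 0.073 (adjusted p = 0.69). Of 18 lysosome genes 3 rose and 2 fell, NPC1, a cholesterol carrier, by 0.31 ± 0.069 (adjusted p = 0.00747). Of 14 water and ion channel genes 1 rose, ATP1B1, a sodium pump subunit (0.18 ± 0.052, adjusted p = 0.0315), and 1 fell, AQP3. FASN, fatty acid synthase, rose by 0.54 ± 0.14 (adjusted p = 0.0203) and SC5D, a late enzyme of cholesterol synthesis, fell by 0.31 (SE 0.062, adjusted p = 0.00304). Other probe sets gave 0.12 for FASN and -0.16 for SC5D, and neither passed. ITGB4, the hemidesmosome integrin, changed by -0.65 ± 0.094 (adjusted p = 0.000182) and lost its call without _x_at and _s_at probe sets (adjusted p = 0.919). S100P, a calcium-binding protein, changed by -0.49 ± 0.09 (adjusted p = 0.0018), and PTGES, a prostaglandin synthase, by -0.44 ± 0.055 (adjusted p = 3.73e-05).

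To see which of these changes also follow a ligand, the washout effect was set beside that of JAG1 beads over Fc beads, on other arrays of the same experiment. Both bead groups had themselves been released from DAPT. The bead comparison is therefore of ligand added after washout, while washout against DAPT starts from cells under the inhibitor. JAG1 beads changed 1604 genes (8.11%), of which 587 were higher (2.97%) and 1017 lower (5.14%); the total was 897 without Fc array 2 and 1059 without JAG1 array 1. Both comparisons raised 223 genes, 27.2% of the washout risers and 38.0% of the JAG1 risers, and both lowered 422, 38.0% of the washout fallers and 41.5% of the JAG1 fallers. The shared risers numbered 128 without JAG1 array 3 and 138 without Fc array 2. A further 23 rose with washout and fell with JAG1, and 7 did the reverse. Over the 19775 genes the 2 sets of changes had a Pearson r of 0.459, as a description over genes, which are not independent.

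The difference between the washout effect and the JAG1 effect passed for 319 genes (1.61%), 224 with the higher log2 change on washout (1.13%) and 95 with the lower (0.48%). Higher and lower refer to the sign of the difference, not to the size of a change. A gene that fell more on washout is thus among the 95, and a gene that fell with JAG1 alone is among the 224. The 95 became 61 without DAPT array 1 and 62 without JAG1 array 2. Within Notch genes NOTCH3 rose by 1.33 on washout and differed by 0.46 ± 0.14 (adjusted p = 0.0525) with JAG1, a difference of 0.87 ± 0.20 (adjusted p = 0.0315). NRARP went the other way, with 0.41 on washout and 1.01 with JAG1 (-0.60 ± 0.096, adjusted p = 0.00163). HES1, at 0.67 on washout and 0.22 with JAG1, had the larger change on washout (0.45 ± 0.09, adjusted p = 0.0107). JAG1 itself rose by 0.63 on washout and 0.65 with beads, with a difference of -0.019 ± 0.10 (adjusted p = 0.967). OLFM4, at 2.06 on washout and 2.59 with JAG1, did not differ past the threshold (-0.53 ± 0.17, adjusted p = 0.159).

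Among the largest washout changes, ID4 rose by 2.22 on washout and 0.70 with JAG1 (difference 1.52 ± 0.16, adjusted p = 3.73e-05), and SERPINA3 by 1.49 on washout against a JAG1 change of 0.21 that did not pass (1.27 ± 0.10, adjusted p = 1.64e-06). MYC differed too, with 1.45 on washout and 0.80 with JAG1 (0.65 ± 0.10, adjusted p = 0.00148). CYP1A1 fell by 2.13 on washout, whereas its JAG1 change was -0.15 ± 0.16 (adjusted p = 0.696) and the difference -1.99 ± 0.23 (adjusted p = 7.06e-05). CYP1B1 had opposite changes, -0.72 on washout and 0.40 with JAG1 (-1.13 ± 0.10, adjusted p = 4.53e-06), and AQP3 fell in both, by 2.12 on washout and 0.999 with JAG1 (difference -1.12 ± 0.15, adjusted p = 0.000275). Of the ATF4 genes 16 of 28 had the higher log2 change on washout and 0 the lower, beside 1.13% and 0.48% of all genes. Examples are CHAC1 (difference 0.94 ± 0.15, adjusted p = 0.00123) and DDIT4 (0.76 ± 0.11, adjusted p = 0.000479). The 16 include NUPR1, which did not pass on washout (0.15, adjusted p = 0.119) and fell with JAG1 (-0.32, adjusted p = 0.00142). With JAG1 beads 5 of the 28 rose and 1 fell. Of ribosome biogenesis genes 0 of 20 and of mitotic genes 0 of 30 passed for the difference. Since only 1.61% of all genes did so, these counts do not show that the 2 effects were equal. JAG1 beads raised 11 of those 20 and 16 of those 30, beside 2.97% of all genes. The luminal secretory list had 6 of 22 with the higher log2 change on washout and 1 with the lower, beside the same 1.13% and 0.48% of all genes. JAG1 beads lowered 13 of those 22 and raised 0, beside 5.14% and 2.97% of all genes. The list's median log2 change was -0.66 with JAG1 and -0.21 on washout, where 7 fell. CYP4Z1, named after its values were seen, had the largest positive difference, with 0.18 on washout and -1.78 with JAG1 (1.95 ± 0.077, adjusted p = 4.86e-11).

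The antagonism experiment gave a second, separate set of arrays in which DAPT was added rather than removed. There DAPT changed 70 genes (0.354%), 40 higher (0.202%) and 30 lower (0.152%). That count rests on single arrays: it was 1198 without control array 2 and between 11 and 35 without any one of the other 5 arrays. Of the 30 genes lower with DAPT there, 17 (56.7%) rose on washout, which is 2.07% of the washout risers. They include MYC, OLFM4, NRP1, ID4, GAS1, IER5, SERPINA3, NOTCH3 and HES1. Of the 40 higher with DAPT, 17 (42.5%) fell on washout, 1.53% of the fallers, among them, chosen after the values were seen, IGFBP5, AGR2, TMPRSS11E, ABCC4 and NAT1. The remaining overlaps ran the same way in both: 1 gene, CYP4Z1, was higher in both and 6, CAV1, CGA, CYP1B1, ID1, IGFL1 and OLFML3, were lower in both. With 1 array left out, the genes lower with DAPT there and raised by washout numbered 1 to 162, and those higher with DAPT there and lowered by washout 3 to 94; both high values are without control array 2. Over the 19775 genes the Pearson r of the 2 sets of changes was -0.234, again as a description.

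MYC and OLFM4, which rose on washout, were lower with DAPT in the antagonism experiment. MYC had 9.45, 9.69 and 9.65 with DAPT there against 10.78, 10.95 and 11.09 in its controls, a change of -1.34 ± 0.098 (adjusted p = 0.00216) beside its rise of 1.45 on washout. OLFM4 had 6.68, 6.64 and 6.87 with DAPT and 8.20, 7.65 and 8.33 in controls, a change of -1.33 ± 0.16 (adjusted p = 0.0152). The DAPT and control arrays did not overlap for either gene. AGR2 had 11.63, 11.63 and 11.63 with DAPT and 10.54, 10.70 and 10.60 in controls, a change of 1.02 ± 0.071 (adjusted p = 0.00216) beside -1.01 on washout. IGFL1, a secreted growth factor-like protein, was lower in both, with -0.65 ± 0.09 (adjusted p = 0.0272) for DAPT there and -0.80 ± 0.086 (adjusted p = 6.46e-06) for washout. In the agonism experiment it had 7.71, 7.80 and 7.94 after washout, 8.65, 8.57 and 8.63 in DAPT and 9.39, 9.50 and 9.47 in DMSO, so washout moved it farther from DMSO. Of the 28 ATF4 genes 0 were higher and 1, SLC7A5, was lower with DAPT in the antagonism experiment (-0.72 ± 0.087, adjusted p = 0.0163). Of the AHR battery CYP1B1 alone passed there (-0.47 ± 0.073, adjusted p = 0.0389). That comparison called 0.354% of all genes, so few calls in a list do not show that its genes were unchanged. The median log2 change of the ATF4 list there was -0.19, beside -0.004 for all genes.

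**Figure D5:**
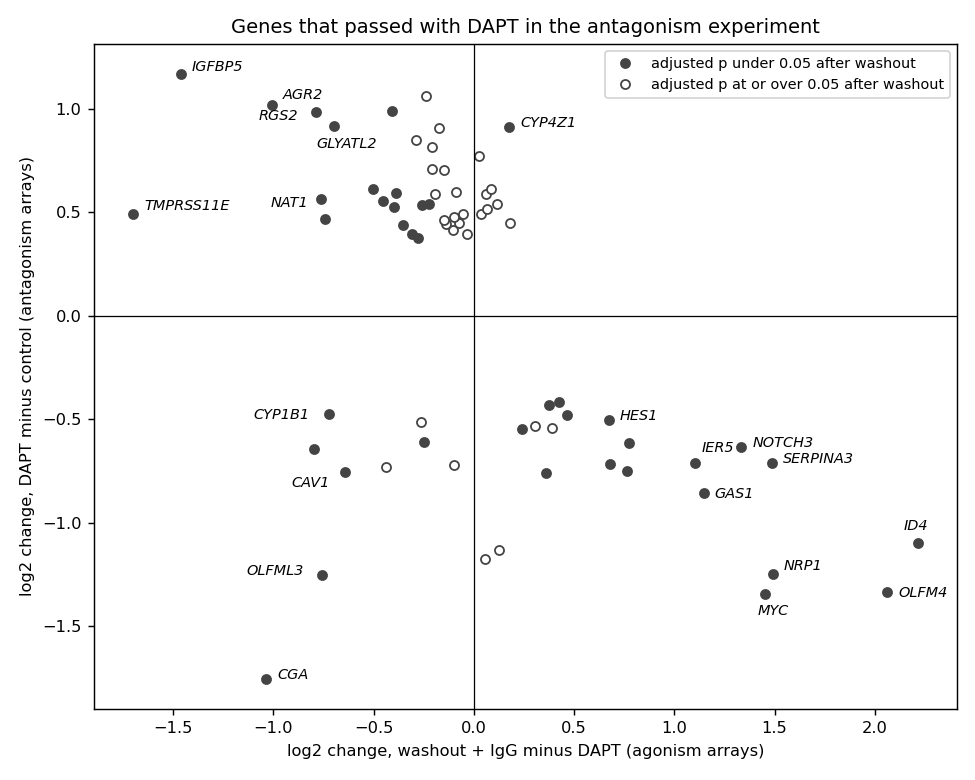
The 70 genes that passed with DAPT in the antagonism experiment, with their log2 change for washout with IgG minus DAPT across and for DAPT minus control upward; the 2 axes share no array, and filled points passed on washout. The upper left holds 17 filled genes such as IGFBP5 and AGR2, the lower right 17 such as OLFM4 and MYC, and the lower left 6 filled genes such as CGA and CAV1.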

How the data were processed

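RNA from cultured cells was hybridised to 26 Affymetrix HG-U133 Plus 2.0 arrays, 1 colour each. The deposited values are linear intensities per probe set, already normalized by the authors; the submitters' processing notes name RMA and R 2.10, without further settings. Log2 of these values was taken, although the planned design assumed log2 values. Of 54675 probe sets, 62 controls were left out, 41091 carried 1 gene symbol, 1801 several and 11721 none in the platform annotation. Each gene took its 1-symbol probe set with the highest mean over 26 arrays, which left 19775 genes. Linear models were fitted with limma 3.58.1 (R 4.3.3; lmFit and eBayes) to all 18 agonism arrays with 12 residual degrees of freedom, and to the 8 antagonism arrays with 5. The 18 include arrays given the agonist NOTCH3 antibody A13 at 20 µg/ml. The 8 include arrays given the blocking NOTCH3 antibody A4 at 10 µg/ml with 0.05% DMSO. Those groups entered the estimate of spread alone. The Benjamini-Hochberg adjustment ran over all 19775 genes, with a threshold of 0.05. Adjusted p-values given for other probe sets come from a second limma fit, adjusted over all 41091 probe sets with 1 gene symbol. The 2 kinds of adjusted p are therefore not on the same footing. Scripts were tested on simulated data. Figures were drawn in Python 3.11.15 with matplotlib 3.10.9. Samples were grouped by treatment label, arrays are numbered in listed order, and no batch is labelled. An array gives no count, and the number of arrays limits precision; the median standard error was 0.0811 on the log2 scale.

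Genes named in the text were the 20 largest rises and falls whose arrays do not overlap, members of the Notch lists, MYC and, from any other list, at most 4 members that passed, with all ATF4 and aryl hydrocarbon receptor genes and others marked as such added after their values were seen. The gene lists and members were chosen with earlier results of these data known. Alternatives covered the arrays in the fit, scaling, a pseudocount of 16, a filter on low levels, the probe sets, the variance model and leaving out single arrays. The change of every other probe set of the named genes was added after seeing the data.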

Additional observations from a re-analysis of the deposited data

How the results depend on the processing

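No paired analysis was possible because the labels give no replicate numbers. Of 179 named genes that passed for washout against DAPT, 116 kept the call in each of up to 15 alternatives and 63 lost it at least once. The cause was not tested for any of these shifts. Of the 179 genes 108 had other probe sets, and not all of these are given above. For 85 of the 108 every other probe set had the same sign, and 0 had one that passed the opposite way. In a fit of the 6 arrays alone 1141 genes passed, 424 higher and 717 lower, of which 410 and 678 were among the original calls; without _x_at and _s_at probe sets 1203 passed, 454 higher and 749 lower, with fewer genes tested. With 1 array left out the total was 1054 to 1793, with 406 to 839 higher and 603 to 1015 lower.

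Signs turned for AURKB (-0.00392) and CENPF (-0.0513) with the mean of all probe sets, and for CENPF (-0.535), HERPUD1 (-0.0531), HES1 (-0.116) and KRT7 (0.0196) without _x_at and _s_at probe sets. JAG1 beads gave 897 to 1447 genes with 1 array left out, 279 to 463 higher and 618 to 996 lower. The difference of the effects gave 223 to 324, with 155 to 224 higher and 61 to 117 lower. Risers shared with JAG1 numbered 128 to 179 and shared fallers 298 to 387.

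In antagonism DAPT 18 genes passed in the 6-array fit, 12 higher and 6 lower, and 11 to 1198 with 1 array left out, 7 to 581 higher and 4 to 617 lower. Genes lower there and higher on washout numbered 3 in the fit of the 6 arrays, 11 with median centring and 1 to 162 with 1 array left out. Genes higher there and lower on washout numbered 5 in that fit and 3 to 94 with 1 array left out.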

Other observations

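Among 13522 probe sets with several gene symbols or none, which no gene above rests on, 117 were higher and 171 lower after washout than in DAPT. For 3 of the transcripts with large washout changes, chosen after their values were seen, 1 of the 3 DMSO arrays was low. MALAT1 had 12.29, 11.36 and 12.41 on the DMSO arrays, LINC00342 had 7.68, 6.93 and 7.85 and ANKRD36B had 7.75, 6.82 and 7.75, the second value of each being the low one. On the washout arrays MALAT1 had 9.92, 9.93 and 10.36, against 11.14, 11.57 and 11.08 on the DAPT arrays. The washout arrays lay below the DAPT arrays for MALAT1 without overlap. LINC00342 had 6.28, 6.17 and 6.39 after washout and 8.10, 7.83 and 7.61 in DAPT.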
